A study of Mus musculus with 10 samples.

Results

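The Col14a1+ Pdgfra+ fibroblasts of the mouse supraspinatus enthesis, the junction where a shoulder tendon joins bone, were drawn by their transcripts from droplet libraries of postnatal days 11 and 18 (P11 and P18). A member had at least 3 unique molecular identifiers (UMIs, counted transcript molecules) of Col14a1, at least 1 of Pdgfra, and 0 of Ptprc, Cdh5, Tnmd and Pi16. These 4 excluding genes mark leukocytes, endothelium, tendon cells and universal-type fibroblasts. Cells under 500 detected genes or above 10% mitochondrial counts had been dropped. The rule gave 497 members among 8348 kept cells, 401 at P11 and 96 at P18, while the droplet libraries of all ages held 13479 kept cells. Members were chosen by the UMI counts of these 6 genes in the same cells, so every other gene of these cells is given as a description.

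The droplet libraries came from wild-type C57BL/6 mice (C57BL/6J in the protocol) at P11, P18 and P56, with 1 library per age. Entheses of several animals were pooled, and cells lacking both Cd45 protein, carried by leukocytes, and DAPI, a dye of dead cells, were sorted into 10x Genomics droplets. A second set of 7 libraries, 1 per age from P7 to P42, was made in 96-well plates from pooled entheses of Gli1CreERT;Ai14 mice (written GliCreERT;Ai14 in the protocol). All of those mice had received tamoxifen at P5 and P7, which lets a Cre driven by Gli1, a Hedgehog pathway transcription factor, switch on a red reporter permanently, and the P7 plate was taken on the day of the second dose. From the wording of the plate sort it is not clear if red cells were the ones collected, and P14 is not among the ages it lists. Both sets were libraries of transcript 3' ends. No label gives tamoxifen to the wild-type mice, and none gives the sex of any animal.

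Col14a1 encodes collagen XIV, a collagen of the fibril-associated (FACIT) kind that sits on the surface of collagen fibrils, and Pdgfra encodes a receptor for platelet-derived growth factors found on fibroblasts and their progenitors. Around a tendon, fibroblasts of the sheath and fascia build a loose matrix rich in collagen III and microfibrils, whereas tendon cells lay down dense collagen I. The other genes used to mark this class belong to growing or remodelling connective tissue: Gpc3 encodes glypican 3, a surface proteoglycan that restrains body growth, Cd248 encodes endosialin, a surface protein of embryonic and growing stroma, and Postn encodes periostin, a matrix protein of growing and healing collagenous tissue. In the GRCm38 (mm10) assembly with GENCODE M21 models, Col14a1 (ENSMUSG00000022371) lies on the plus strand of chromosome 15 from 55307750 to 55520803. Gpc3 (ENSMUSG00000055653) lies on the minus strand of chromosome X from 52272426 to 52613950. Cd248 (ENSMUSG00000056481) lies on the plus strand of chromosome 19 from 5068078 to 5070682, and Postn (ENSMUSG00000027750) on the plus strand of chromosome 3 from 54361109 to 54391037. All 4 are protein-coding genes, and the values are totals per gene, so no exon or transcript end is singled out.

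Members made up 13.6% of 2952 kept cells at P11 (95% exact binomial interval 12.4 to 14.9) and 1.78% of 5396 at P18 (1.44 to 2.17). Cells with Ptprc or Cdh5 took up more of the P18 library than of the P11 library. Over cells with 0 UMIs of Ptprc and Cdh5, the shares were 16.5% of 2431 at P11 (15.0 to 18.0) and 3.37% of 2845 at P18 (2.74 to 4.11). The same rule took 313 of 5131 cells at P56, or 6.10% (5.46 to 6.79). At P11, 1312 cells had 3 or more Col14a1 UMIs and 1002 of these also had Pdgfra. The removal of Ptprc left 991, of Cdh5 986, of Tnmd 492 and of Pi16 401, so Tnmd was the step that took out most cells. At P18 the corresponding numbers were 243, 180, 166, 165, 118 and 96. A depth requirement is built into such a rule: after thinning every cell to 4000 UMIs before gating, members were 8.75% of kept cells at P11 and 1.17% at P18. These shares therefore describe 2 libraries, and intervals here and below cover counting error only.

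The libraries differed in ways that touch every age comparison. They held 40082499 to 53725468 UMIs in 3263 to 5588 barcodes. Members had a median of 14362 UMIs and 3684 genes at P11, 9327 and 2715.5 at P18, and 8964 and 2456 at P56, and the summed UMIs over members were 6088942, 978880 and 3276959. The transcript Xist, made from the inactive X chromosome, was at 839 CPM (counts per 1000000 summed UMIs of the class) at P11 against 304 CPM at P18 and only 1.22 CPM at P56. UMIs of any of 4 Y-linked genes were seen in 15.7%, 41.7% and 68.7% of members respectively, so the pools differed in their mix of sexes, and age and sex cannot be told apart over all members. Cells of male type could be set apart by 0 Xist and at least 1 Y-linked UMI, and values within these 101 members (61 at P11 and 40 at P18), called Y+ cells below, are given where they differ. Pairs of libraries shared 4 to 9 cell barcodes, and 1 member at P11 and 1 at P18 carried a shared one. At P18, S100a8, a neutrophil transcript, had a UMI in 38.5% of members against 0.748% at P11, and in 74.3% of Ptprc+ cells of that library.

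The 3 other marker transcripts of the class were present at P11 and P18. The class was chosen with earlier results of these data known, so this is a description and no check of its label. Gpc3 stood at 364, 411 and 124 CPM at P11, P18 and P56. Cd248 stood at 397, 221 and 196 CPM, and Postn at 1273, 606 and 83.6 CPM. All 3 markers were thus present at both ages of the rule, and their summed levels were lowest at P56, Postn by far. For Cd248 the summed levels at P18 and P56 were close. Its median per cell was lower at P18 (78.6 CPM) than at P56 (125 CPM). With every cell thinned to 2000 UMIs, 47.2% of 400 members at P11 had a Gpc3 UMI, 44.8% a Cd248 UMI and 65.2% a Postn UMI, and before thinning these shares were 84.0%, 78.6% and 80.5%. At P18 the thinned shares over 95 members were 43.2%, 24.2% and 48.4%, against 64.6%, 51.0% and 60.4% unthinned. In both libraries 1 member was too shallow to thin. Ptprc+ cells, which were taken without any Pdgfra or Col14a1 UMI, seldom carried the 3 transcripts. When thinned they had Gpc3, Cd248 and Postn UMIs in 0, 0.375% and 0.375% of cells at P11 and in 0.0658%, 0 and 0.132% at P18. Their median depths were 11667.5 and 7238 UMIs. Taking them so leaves out cells with fibroblast RNA, and these shares do not measure free RNA. The FACIT and fibril collagen list summed to 1312 and 592 CPM in them, against 38337 and 35233 CPM in the class. At least 1 of the 3 transcripts was seen in 86.5% of thinned members at P11 and 73.7% at P18, and all 3 in 18.2% and 7.37%.

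**Figure D1:**
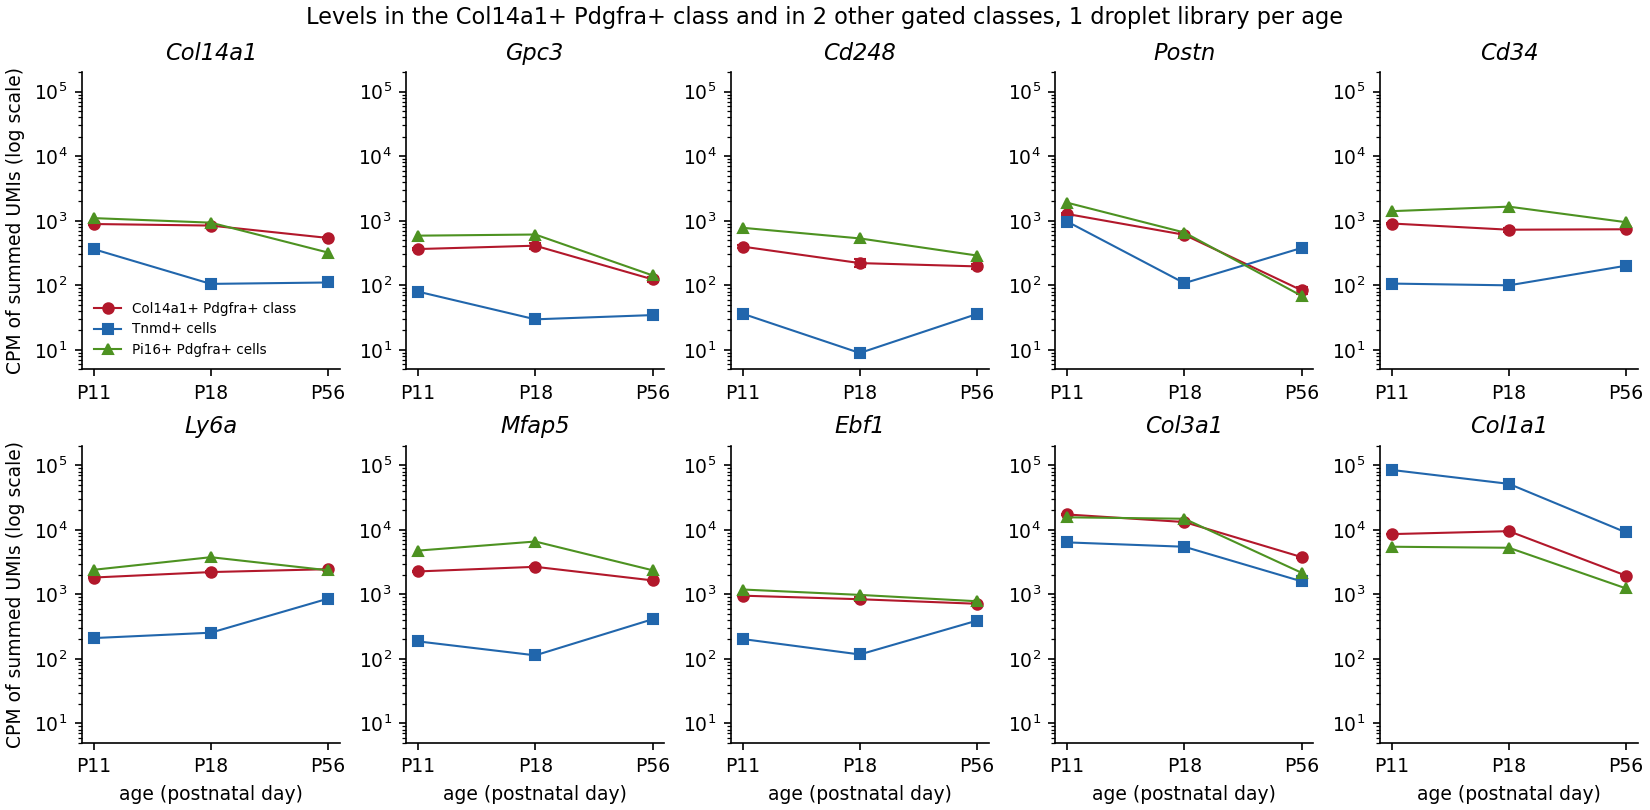
Levels of 10 genes as CPM of summed UMIs on a log axis at P11, P18 and P56 (1 library each) in the Col14a1+ Pdgfra+ class, Tnmd+ cells and Pi16+ Pdgfra+ cells; error bars on the class are exact Poisson 95% intervals, mostly smaller than the symbols. Gpc3, Cd248, Cd34, Ly6a, Mfap5 and Ebf1 lie above the Tnmd+ cells at all 3 ages, Col1a1 lies below them, and Postn in the class goes from 1273 to 83.6 CPM between P11 and P56.

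Cells at the edge of the Col14a1 requirement were few. At exactly 3 UMIs, just inside, there were 24 cells at P11 and 9 at P18, with Gpc3 at 108 and 165 CPM, Cd248 at 104 and 279 CPM and Ly6a at 474 and 1421 CPM. At 2 UMIs, just outside, there were 20 and 16 cells, with Gpc3 at 138 and 181 CPM, Cd248 at 79.5 and 322 CPM and Ly6a at 674 and 2163 CPM. Both sides of the edge carried less Gpc3 than the class as a whole. Both also carried much Col2a1, the collagen of cartilage, at 18260 and 8094 CPM inside and 24495 and 16776 CPM outside.

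A small set of members accounted for that cartilage transcript. Cells with Col2a1 at 1000 CPM or more numbered 17 of 401 at P11 (4.24%, 2.49 to 6.70) and 8 of 96 at P18 (8.33%, 3.67 to 15.8), and none of 313 at P56. The limit was set after the values were seen. Within these cells Col2a1 stood at 52878 CPM at P11 and 25349 CPM at P18, against 34.8 and 39.5 CPM in the other members. The cartilage transcription factor Sox9 stood at 977 and 1184 CPM against 65.8 and 108 CPM, and Msmp, a secreted protein, at 4194 and 6125 CPM against 5.63 and 27.1 CPM. The markers of the class were low in them: Gpc3 stood at 40.3 and 10.9 CPM against 377 and 452 CPM, and Ly6a at 44.8 and 0 CPM against 1888 and 2442 CPM. The gate therefore took in a few cells with abundant cartilage transcripts, and counts of cartilage and tendon genes against the Tnmd+ and Pi16+ cells are given with and without them.

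Other cell types left little trace in the members. The 6 endothelial markers summed to 2.63 CPM at P11, 0 at P18 and 6.10 CPM at P56, against 4068, 3746 and 2680 CPM in Cdh5+ cells. The 9 immune markers summed to 28.7, 180 and 5.49 CPM, with 200 CPM in the Tnmd+ cells at P18 and 120494 CPM in Ptprc+ cells there. The osteoblast list summed to 6.57, 161 and 4.58 CPM and held Sp7, the defining osteoblast factor, at 0 at every age. Mural markers summed to 81.5, 48.0 and 75.4 CPM, Schwann and perineurial markers to 13.1, 3.06 and 8.54 CPM with Sox10 at 0, and muscle markers to 18.1, 4.09 and 192 CPM. Adipoq, made by fat cells, and Pax7, made by muscle stem cells, were also at 0.

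By the variance-to-mean ratio, which among differing cells also rises with the mean count, the members varied most in genes that were largely of matrix and lining. Over 2324 genes in thinned cells the median variance-to-mean ratio was 1.06 at P11 and 1.07 at P18, where random counting alone gives a ratio of 1. The 10 genes with the highest ratio at both ages were Col2a1, Msmp, Col1a1, Mgp, Igfbp5, Malat1, Sparc, Prg4, Crip1 and Col3a1. Col2a1 reached 128 and 66.7, Msmp 43.9 and 92.0, and Prg4, which encodes the joint lubricant lubricin, 45.1 and 12.9. For Col14a1 the 10% of members with the highest level held 22.9% of the summed CPM per cell at P11, and for Gpc3 30.03%. For Prg4 those 10% held 96.0% at P11, 77.0% at P18 and 40.8% at P56, as Prg4 went from few cells to most: its median per cell was 0, 90.1 and 1261 CPM, and its thinned share of cells 12.8%, 33.7% and 74.8% (29.9%, 56.2% and 88.8% unthinned).

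**Figure D2:**
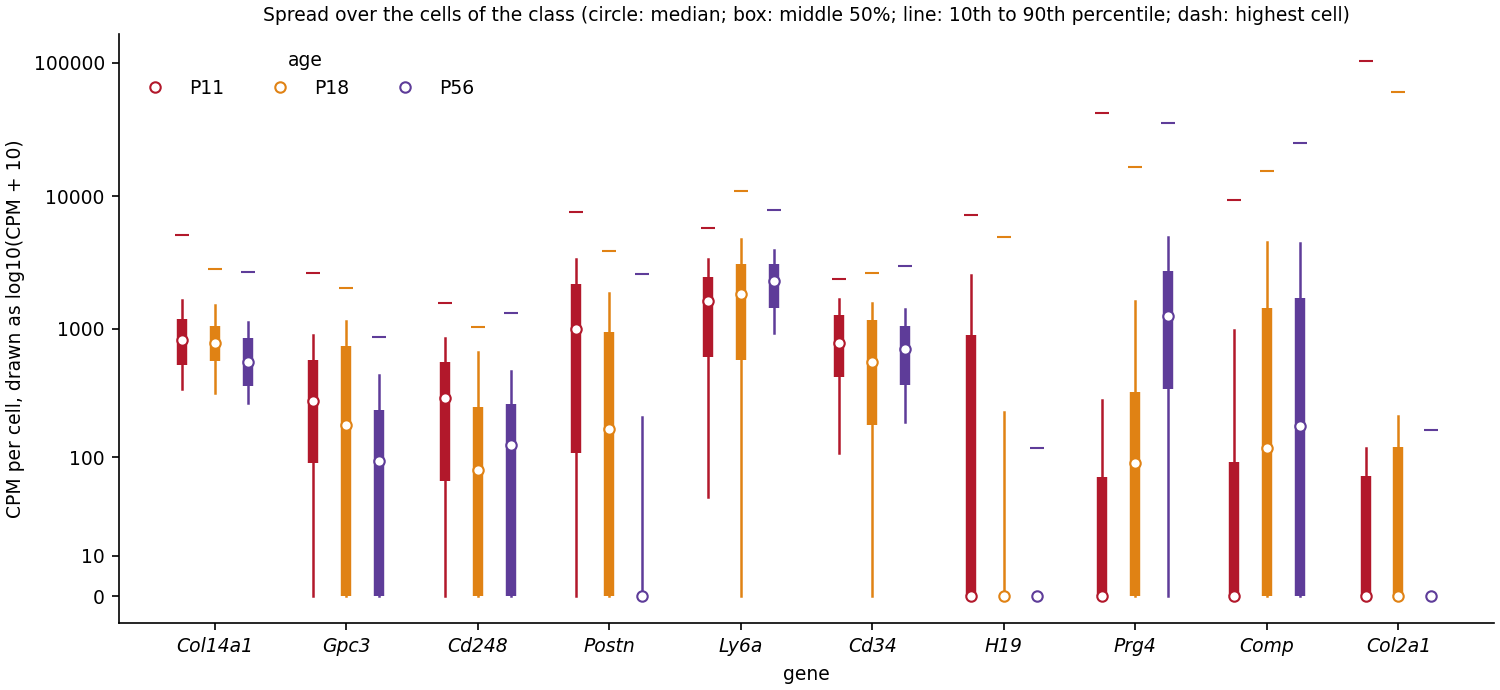
CPM per member cell, drawn as log10(CPM + 10), for 10 genes at P11, P18 and P56; circles are medians over cells, boxes the middle 50%, lines the 10th to 90th percentile and dashes the highest cell. Ly6a medians stay between 1633 and 2294 CPM, Postn goes from a median of 991 CPM to 0, Prg4 from 0 to 1261 CPM, and Col2a1 has medians of 0 with single cells far above.

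At P11 and P18, Comp was detected less often in members with Ly6a or Cd248 than in members without them. Ly6a (Sca-1) and Cd34 are surface proteins of fibroblast progenitors, and Comp encodes a cartilage and tendon matrix protein. In thinned members at P11, Ly6a was detected in 93.3% of cells with Cd248 and in 67.9% of those without, and at P18 in 95.7% and 66.7%. Comp was detected in 12.6% of P11 members with Ly6a and in 34.9% of those without, and at P18 in 31.4% and 76.0%. Cd34 followed Ly6a, in 79.8% against 42.2% of cells at P11 and in 77.1% against 20.0% at P18. Col2a1 went the other way, in 9.15% against 30.1% at P11 and in 8.57% against 44.0% at P18. These shares come from cells of 1 library each and have no test.

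The share of members with transcripts of division depended on depth. After thinning to 2000 UMIs, 6.75% of members at P11, 6.32% at P18 and 3.51% at P56 had UMIs of at least 2 cell cycle genes, against 27.7% and 38.6% of Ptprc+ cells at P11 and P18. Without thinning the shares of members were 55.9%, 38.5% and 38.7%. Mki67, a protein of dividing nuclei, stood at 22.2, 8.17 and 1.83 CPM at P11, P18 and P56, and Cdk1, the mitotic kinase, at 29.4, 3.07 and 7.02 CPM.

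Against the Tnmd+ cells of the same libraries, the class carried more surface, basement membrane and microfibril genes and less collagen I and tendon matrix. Tnmd+ cells (at least 3 Tnmd UMIs and 0 of Ptprc, Cdh5 and Pi16) numbered 1212 at P11 and 421 at P18. They held more than tendon transcripts. At P18 their cartilage list summed to 14344 CPM, the tendon list to 12706 CPM and the osteoblast list to 3780 CPM. At P11 these sums were 7813, 15052 and 384 CPM. The part of cartilage or bone cells in the ratios was not tested. A group with 0 counts was taken at 3 in every ratio. A gene needed at least 100 UMIs over the compared groups, with an equal share of that minimum met at P11 and at P18. Of 7539 such genes, 399 (5.29%) were at least 2-fold higher in the class at both ages and 242 (3.21%) at least 2-fold lower, together 8.5%. The median log2 ratio over all genes was 0.20. With median-ratio (RLE) scaling in place of totals, that median moved by -0.23 to -0.02, and the share of higher genes among the calls went from 62.2% of 641 to 36.3% of 557, so the balance of the 2 directions depends on the scaling. Since the gate used Tnmd and Col14a1, none of this is a test.

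The universal fibroblast list had 10 of 12 measured genes at least 2-fold higher at both ages, none lower, with a median log2 ratio of 2.03 (9 of 12 under RLE scaling). Cd34 stood at 906 CPM in the class at P11 against 106 CPM in Tnmd+ cells, and at 726 against 99.8 CPM at P18. Ly6a stood at 1821 against 210 CPM and at 2213 against 254 CPM. Mfap5, a microfibril glycoprotein, stood at 2264 against 187 CPM and at 2670 against 113 CPM, a log2 ratio of 3.60 and 4.56. Gsn, an actin-severing protein, stood at 3892 against 761 CPM and at 9761 against 1491 CPM. In Pi16+ fibroblasts, which the rule excluded, Cd34 stood at 1408 and 1654 CPM and Ly6a at 2399 and 3762 CPM, so both transcripts were higher still in that class.

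Among the markers, Gpc3 had log2 ratios over the Tnmd+ cells of 2.19 at P11 and 3.79 at P18, and Cd248 of 3.45 and 4.63. Postn did not separate the classes at P11, at 1273 against 972 CPM (log2 ratio 0.39), and did at P18, at 606 against 108 CPM (2.49). At P56 Postn was lower in the class than in Tnmd+ cells, at 83.6 against 379 CPM. Periostin transcript was therefore shared with Tnmd+ cells at P11 and is the least particular of the markers in these values.

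Basement membrane genes were higher in the class: 8 of the 14 measured (6 under RLE scaling), none lower, median log2 ratio 1.23. They were Col4a1, Col18a1, Lama2, Lama4, Lamb1, Lamc1, Nid1 and Nid2, the chains of collagen IV, collagen XVIII, laminins and their linker nidogen. Nid1 stood at 466.1 CPM at P11 against 109 CPM and at 369 CPM at P18 against 35.5 CPM. Lama2, the chain of laminin-211, stood at 117 against 16.7 CPM and at 77.6 against 7.14 CPM. Col6a1, Col6a2 and Col6a3, the chains of collagen VI, were within 2-fold at both ages.

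The fibril collagens split. Col3a1 stood at 17280 CPM in the class at P11 against 6380 CPM and at 13190 CPM at P18 against 5463 CPM, log2 ratios of 1.44 and 1.27. Col5a3, a minor collagen V chain, was the other gene of this list that was higher, at 277 against 52.6 CPM and 198 against 16.3 CPM. Col1a1 stood at 8576 against 84600 CPM at P11 and at 9528 against 51500 CPM at P18, log2 ratios of -3.30 and -2.43. Col1a2, Col12a1, Col11a1, Col8a1 and Col8a2 were lower too, which made 2 higher and 6 lower of 11 (1 and 7 under RLE scaling), with a median log2 ratio of -1.08.

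Tendon genes were low in the class, with 8 of 10 at least 2-fold lower at both ages and a median log2 ratio of -2.41 (8 of 10 under RLE scaling, and 8 of 10 with a median of -3.22 without the Col2a1-high members). Scx, the tendon transcription factor, stood at 10.0 against 348 CPM at P11 and at 13.3 against 215 CPM at P18. Fmod, the collagen-binding proteoglycan fibromodulin, stood at 232 against 5524 CPM and at 436 against 3357 CPM. Kera, encoding keratocan, stood at 59.0 against 2076 CPM and at 26.6 against 938 CPM. The osteoblast genes measured, Runx2, Alpl, Ibsp and Bglap, were all lower in the class. Of 10 cartilage genes, 4 were lower among all members and all 10 when the Col2a1-high members were left out.

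Transcription factors of connective tissue gave 5 of 19 genes higher and none lower, with a median log2 ratio of 0.52 (4 of 19 under RLE scaling, median 0.08). Ebf1 stood at 953 against 203 CPM at P11 and 839.7 against 117 CPM at P18. Ebf2 stood at 139 against 15.3 CPM and 76.6 against 3.79 CPM. Both are factors with roles in mesenchymal and fat cell precursors. Osr1 and Osr2, factors of limb connective tissue and joints, were also higher: Osr1 stood at 36.3 against 8.91 CPM and 39.8 against 6.70 CPM, and Osr2 at 69.1 against 7.56 CPM and 38.8 against 2.68 CPM. Meox1 was the fifth. Of the general limb mesenchyme factors, Twist1 and Tbx5 were within 2-fold of the Tnmd+ cells at both ages, and Prrx1 was 2.14-fold higher at P11 and 1.81-fold at P18.

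**Figure D3:**
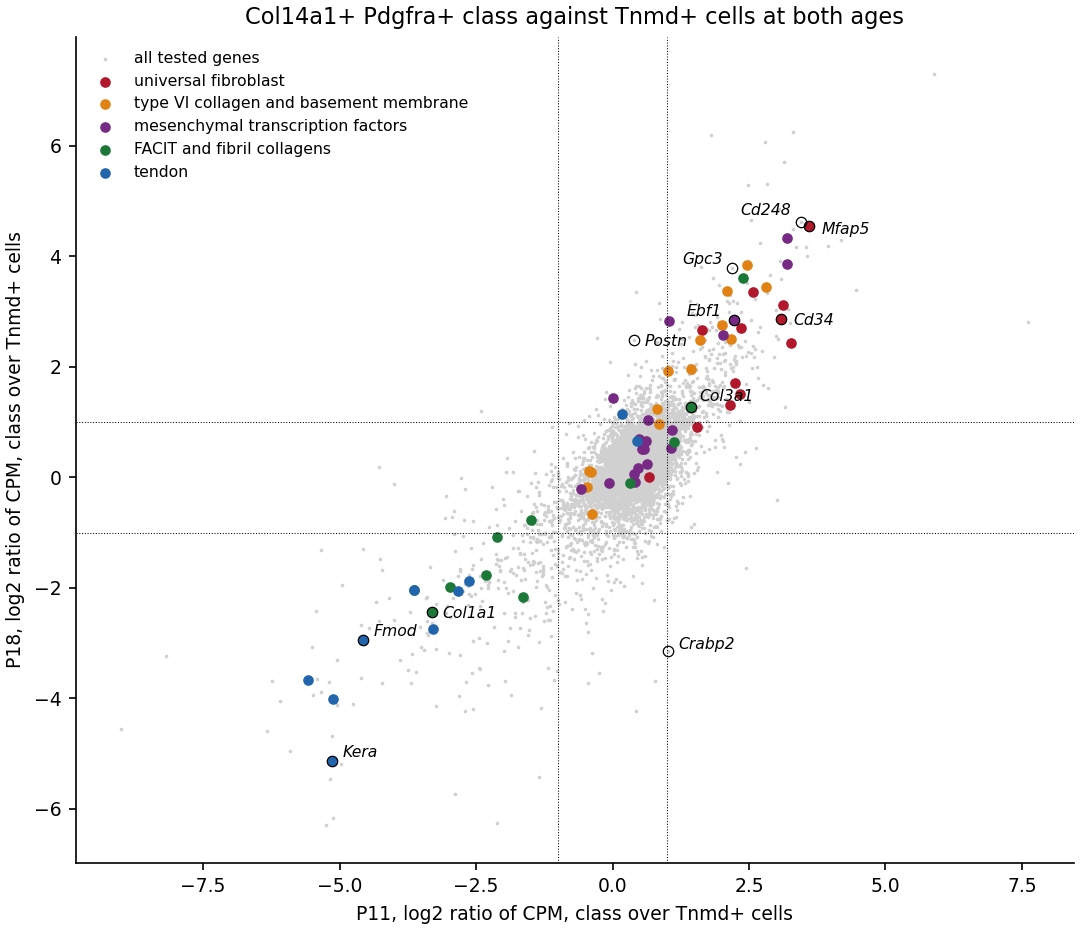
Log2 ratio of CPM in the Col14a1+ Pdgfra+ class over Tnmd+ cells at P11 (horizontal) and P18 (vertical); each dot is a gene that met the UMI minimum at both ages, colours mark 5 gene lists, rings mark named genes and dotted lines mark 2-fold. Universal fibroblast and basement membrane genes sit mostly in the upper right and tendon genes and Col1a1 in the lower left, while Crabp2 is the named gene with opposite signs, at 1.02 and -3.14.

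Chemokine and complement genes were mostly higher in the class, 8 of 12 against 2 lower, with a median log2 ratio of 1.36 (5 and 2 under RLE scaling). Ccl11, the eosinophil chemokine eotaxin, led all named genes: it stood at 51.1 CPM at P11 against 0.864 CPM and at 105 CPM at P18 against 0. At P18 that is at least 157-fold higher, with 3 counts taken as the limit over the Tnmd+ cells. The other 9 genes with the largest ratios in that direction at both ages were Efhd1, Ifi204, Emilin2, Mfap5, Itgb3, Cadm3, Cd248, Efemp1 and Ifi207. Emilin2 and Efemp1 encode elastic fibre proteins, and Efemp1 stood at 78.8 against 3.56 CPM and 54.1 against 5.13 CPM. The 10 genes most depleted at both ages were Barx2, Mt3, Kera, Dkk1, Sfrp5, Atp6v0a4, Alpl, Angptl7, Ibsp and Clec3a, among them the Wnt inhibitors Dkk1 and Sfrp5. Barx2, a homeobox gene, stood at 2.13 against 81.0 CPM and at 1.02 (1 UMI) against 80.4 CPM.

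The Pi16+ Pdgfra+ fibroblasts (at least 2 Pi16 UMIs, 0 of Ptprc, Cdh5 and Tnmd) were the nearest class, with few cells: 57 at P11 and 18 at P18. Of 3179 genes with enough UMIs, 71 (2.23%) were at least 2-fold higher in the Col14a1+ class at both ages and 29 (0.912%) at least 2-fold lower, together 3.15%, and the median log2 ratio was -0.01. Most of the named higher genes were cartilage or tendon genes: Col2a1, Msmp, Wif1, Acan, Fmod, Col9a3, Ucma, Comp, Rgcc and Col11a1. All 8 measured cartilage genes were higher, as were 4 of 6 tendon genes. The class held 978880 UMIs at P18 and the Pi16+ cells 176524, so genes low in the Pi16+ cells could pass the minimum through the class. Col9a1, Col9a2, Hapln1 and Col11a2 had 0 UMIs in the Pi16+ cells at P18 and passed in this way. The counts of higher genes are partly set by that minimum. Without the Col2a1-high members 2 cartilage genes had enough UMIs, both higher, 4 of 6 tendon genes were higher, and the share of higher genes among the calls went from 71.0% to 60.3%. That share was 53.6% in Y+ cells alone, and 59.2% over all members with a minimum of 20 UMIs.

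The elastic fibre list had 4 of 15 genes lower in the Col14a1+ class than in Pi16+ cells and none higher. Eln, which encodes elastin, stood at 89.5 against 284 CPM at P11 and 91.9 against 753 CPM at P18, a smaller log2 ratio of -1.66 over both ages, which turned to 0.84 in Y+ cells alone. Mfap5 stood at 2264 against 4761 CPM and 2670 against 6583 CPM. Efemp1 stood at 78.8 against 368 CPM and 54.1 against 227 CPM. Mfap4 was the fourth of this list (3 were lower under RLE scaling). Stmn4, Ace, Dpep1, Scara5, Akap12, Qpct, Nid1 and Adamts5 were the other named genes, and Nid1 stood at 466.1 against 1270 CPM and 369 against 1360 CPM. Of the universal fibroblast genes Anxa3 and Mfap5 were lower and the other 10 were within 2-fold at one age at least. Gpc3, at log2 ratios of -0.69 and -0.58, and Cd248, at -0.97 and -1.27, were no higher in the class than in the Pi16+ cells, so these markers do not separate them.

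The plates, samples that the rule had not used, allowed a comparison with replicates. Wells have fewer counts, so a class well needed 1 or more counts of Col14a1 and of Pdgfra and 0 of Ptprc, Cdh5, Tnmd and Pi16, and it was set against wells with Tnmd and 0 of Ptprc, Cdh5 and Pi16. From P11 to P42 in order of age there were 6, 9, 7, 11, 6 and 10 class wells and 71, 58, 51, 44, 41 and 38 Tnmd wells. The P7 plate had 1 class well and was left out. Class wells summed to 14763 to 46948 counts per plate, and Tnmd wells to 97932 to 303320. Counts were summed by plate and class and fitted with plate as a block, and the 6 genes of the rule were not counted. The wells were split by their own counts of Tnmd, Col14a1 and Pdgfra, so genes tied to these differ by the split itself. A p-value here tells only if a difference between wells so split repeats from plate to plate. The plates are 1 per age from pooled animals, so p-values measure the spread between these plates only.

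Of 877 genes, 26 (2.96%) were higher in the class wells and 33 (3.76%) lower at an adjusted p under 0.05 by edgeR's quasi-likelihood test with Benjamini-Hochberg adjustment. At an unadjusted p under 0.05 there were 174, and DESeq2 called 58. Leaving out the P14 plate left 30 calls, 9 higher and 21 lower, while leaving out any other plate left 48 to 64. Without the plate block 11 genes passed, 2 higher and 9 lower.

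Cd34 was the clearest of the higher genes. It stood at 1355, 596, 644, 846, 618 and 624 CPM in the class wells from P11 to P42 and at 348, 79.1, 87.9, 172, 91.9 and 265 CPM in Tnmd wells. The class wells were above on each of the 6 plates and the groups did not overlap, with a log2 fold change of 2.15 (SE 0.28, adjusted p = 0.0003951). Ly6a stood at 1016, 959, 1745, 1106, 2040 and 759.6 CPM against 262, 198, 685, 562, 337 and 438 CPM. Again every class value exceeded every Tnmd value, with a log2 fold change of 1.49 (SE 0.26, adjusted p = 0.00309). Gsn stood at 5216, 1555, 2308, 9594, 5871 and 4612 CPM against 1522, 422, 1009, 2993, 2767 and 3289 CPM. The class wells were higher on every plate, though the ranges overlapped across plates (log2 fold change 1.21, SE 0.20, adjusted p = 0.001859). With no filter on low counts, which took the fit to 19957 genes, Cd34 kept its call at 1.49, whereas Ly6a (0.85, adjusted p = 0.168) and Gsn (0.55, adjusted p = 0.311) did not pass. Mfap5 (0.67), Sgce, Ablim1, Fstl1 (0.15), Ramp2 and Myoc, described below, did not pass in that fit either.

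**Figure D4:**
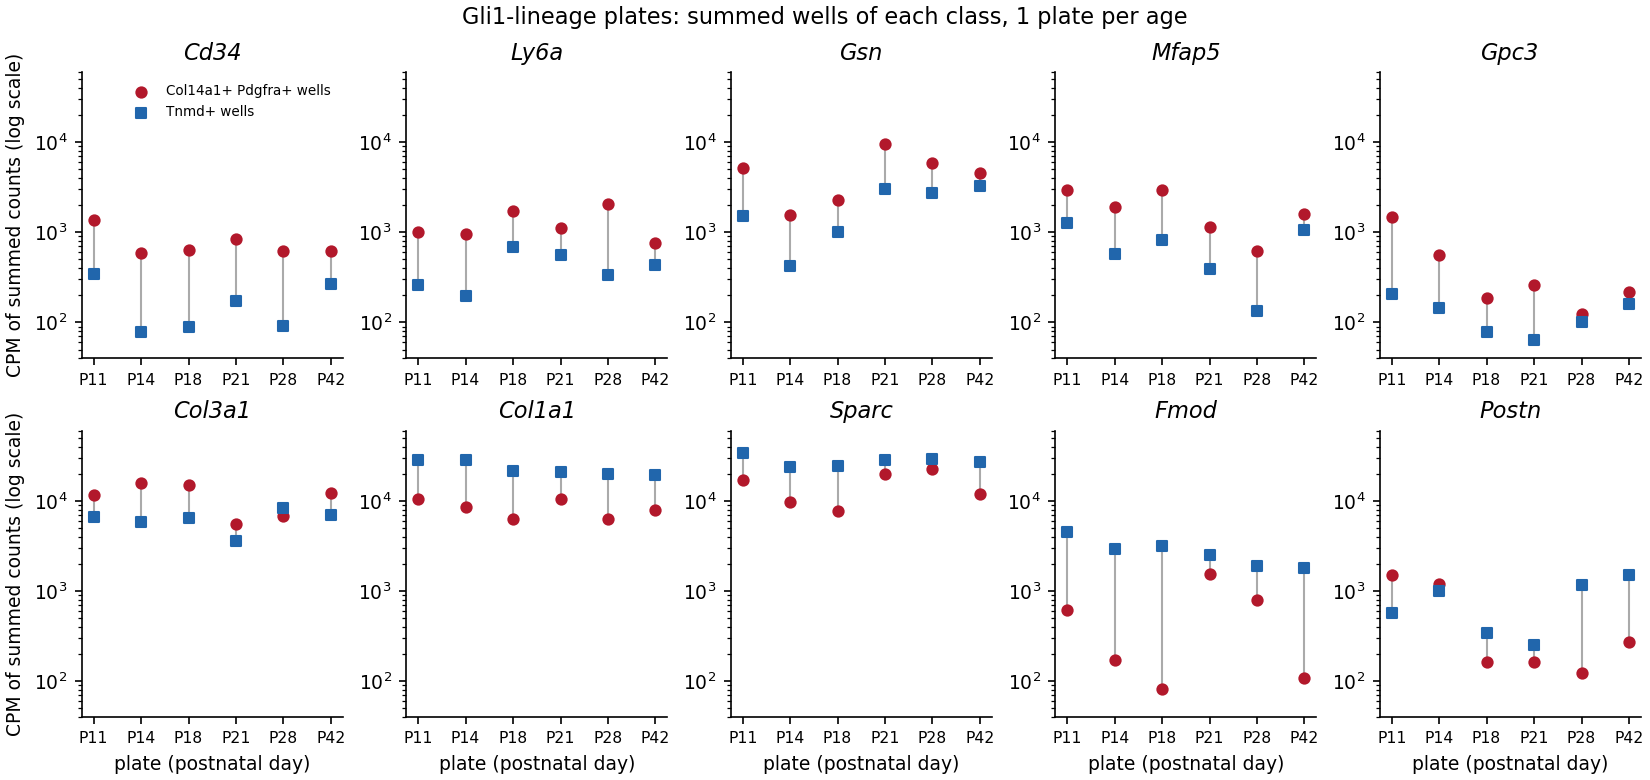
CPM of summed wells on a log axis for 10 genes on the 6 plates from P11 to P42; circles are Col14a1+ Pdgfra+ wells, squares Tnmd+ wells, and lines join the classes of 1 plate. Cd34, Ly6a, Gsn, Mfap5 and Gpc3 lie above in class wells on all 6 plates and Col1a1, Sparc and Fmod below, Col3a1 lies above on 5, and Postn on 2.

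Gpc3, a marker that the rule did not use, stood at 1490, 554, 188, 260.2, 124 and 217 CPM in class wells against 208, 145, 78.7, 63.8, 102 and 159 CPM. It was higher on 6 of 6 plates, with the widest gap at P11 (log2 fold change 1.53, SE 0.35, adjusted p = 0.0149). Postn stood at 1490, 1193, 161, 163, 124 and 271 CPM against 567, 1009, 338, 249, 1154 and 1485 CPM. It was higher in class wells at P11 and P14 and lower on the other 4 plates, and it did not pass the test (log2 fold change -0.81, adjusted p = 0.3592). Cd248 had too few counts to be tested.

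Of the lists, 4 of 7 universal fibroblast genes rose in the class wells (Cd34, Gsn, Ly6a and Mfap5) and none fell, with a median log2 fold change of 1.21 against -0.05 over all genes. Basement membrane genes gave 3 of 9 higher, Col4a1, Lama2 and Nid1. Col4a1 had a log2 fold change of 1.34 and was higher on 6 of 6 plates, and Nid1 (1.25) and Lama2 (1.28) were higher on 5 of 6. Ebf1 was the 1 of 3 transcription factors that passed, at 1.13 (SE 0.28, adjusted p = 0.02527), higher on 6 of 6. Of the elastic fibre genes Fbn1 and Mfap5 were higher among 6, and of the chemokine and complement genes and the collagen processing genes none passed among 5 and 12. Lum (1.01) was higher, and Bgn and Fmod lower, among 7 small leucine-rich proteoglycans, which sit on collagen fibrils. The other named higher genes were Apod, a lipid carrier, with a log2 fold change of 2.22, Sgce (1.71), Fstl1 (0.80), Ablim1, Ramp2 (1.51) and Myoc (1.41).

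Fibril collagens split on the plates as well. Col3a1 stood at 11720, 15930, 14840, 5594, 6799 and 12260 CPM in class wells against 6597, 5763, 6404, 3587, 8312 and 7055 CPM. It was higher on 5 of 6 plates, P28 being the exception (log2 fold change 0.65, SE 0.18, adjusted p = 0.04607). Col1a1 stood at 10630, 8605, 6335, 10600, 6304 and 7840 CPM against 28570, 28240, 21650, 20840, 20000 and 19610 CPM. It was lower on every plate with no overlap (log2 fold change -1.62, SE 0.14, adjusted p = 1.029e-05). Of 9 fibril collagens, 2 were higher (Col3a1 and Col5a3) and 4 lower (Col11a1, Col12a1, Col1a1 and Col1a2).

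Tendon and bone matrix genes were among the other lower genes. Fmod stood at 609.6, 170.4, 80.5, 1529, 804 and 109 CPM in class wells against 4469, 2947, 3119, 2534, 1869 and 1790 CPM. It was lower on every plate, least so at P21 (log2 fold change -2.88, SE 0.48, adjusted p = 0.001859). Comp, Thbs4 and Col11a1 were the other 3 of 6 tendon genes that were lower, with Comp at -1.64 and Thbs4 at -2.18. Chad, encoding the cartilage protein chondroadherin, was lower by a log2 fold change of -2.49 and Ibsp, encoding bone sialoprotein, by -2.82. Sparc, a calcium-binding matrix protein, was lower at -1.14. Col12a1 (-2.49) had 0 counts in the class wells of 3 plates. The remaining named lower genes were Col1a2, Acta1 and 1500015O10Rik. Acta1 went from -2.65 to -0.26 (adjusted p = 0.812) when 3 counts of Col14a1 and of Tnmd were required.

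Droplets and plates could be set side by side for 840 genes tested in both. Of 83 genes higher in the droplet class than in Tnmd+ cells, 21 were higher on the plates, which is 25.3% of those 83 and 80.8% of the 26 plate calls. Of 36 genes lower in the droplets, 25 were lower on the plates, which is 69.4% of 36 and 86.2% of the 29 plate calls. The sign on the plates was the same for 80 of the 83 and for 36 of the 36, and no gene was called in opposite directions. Over all 840 genes, 26 were called higher on the plates and 29 lower. Cells and wells were split by the same genes of the rule, so this overlap is partly set by the split and is not a test. H19, higher in the droplet class, was not called on the plates (log2 fold change -0.36, adjusted p = 0.7045): it stood at 2845, 1193, 0, 195, 61.8 and 189.9 CPM in class wells and at 1224, 966, 268, 670.2, 61.3 and 186 CPM in Tnmd wells.

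Between P11 and P18, the members at P18 carried less of 5 provisional matrix genes and of 5 imprinted genes. With 1 library per age there is no test, and a gene is called when it differs at least 2-fold. Of 6864 genes, 111 (1.62%) were higher at P18 and 275 (4.01%) lower, together 5.62%, with a median log2 ratio of -0.10. The 95% counting interval of the ratio left out no change for all 111 and for 271 of the 275. The limits on UMIs and fold largely set this in advance. The interval also takes UMIs as independent, although some genes had many of theirs in 1 cell, so it adds no support to the calls. Among Y+ cells 137 of 2130 genes were called and 53.3% of them were higher, against 28.8% of 386 over all members, so the excess of lower genes was not seen in that smaller set.

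Provisional matrix, the fibronectin- and tenascin-rich matrix of growing tissue, had 5 of 11 genes lower and none higher, with a median log2 ratio of -0.58 (3 of 10 lower in Y+ cells). The summed level of the list was nearly level, at 20185 and 19679 CPM, with Sparc making up much of it at 10950 and 14690 CPM. Postn stood at 1273 CPM at P11 and 606 CPM at P18, a log2 ratio of -1.07 (-1.19 to -0.95). Fn1, encoding fibronectin, stood at 4467 and 2069 CPM (-1.11). Tnc stood at 103 and 41.9 CPM, Vcan at 668 and 276 CPM, and Cthrc1, which is made in remodelling collagenous tissue, at 428 and 122 CPM (-1.81). The fibril collagens were nearly level: Col8a1 was higher among 11 and none was lower, and Col1a1 stood at 8576 and 9528 CPM. Collagen processing enzymes gave 0 calls among 21 and the transcription factors 0 among 19.

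Imprinted genes, which are expressed from 1 parental copy and include many regulators of growth before and after birth, had 5 of 14 lower and none higher, with a median log2 ratio of -0.52. H19, a non-coding RNA on chromosome 7 from 142575529 to 142578143, stood at 682 CPM at P11 and 119.5 CPM at P18, and 1 UMI gave 0.305 CPM at P56. Its share of thinned members was 35.2%, 8.42% and 0, and 49.6%, 21.9% and 0.319% unthinned. At P18 a single cell held 65 of the 117 H19 UMIs. Igf2, the neighbouring growth factor gene, stood at 21.7, 8.17 and 0 CPM, Mest at 159.5, 37.8 and 5.80 CPM and Plagl1, a zinc finger regulator of other imprinted genes, at 211, 75.6 and 31.1 CPM. Peg10 was the fifth, at 16.9 CPM at P11 and 2.04 CPM (2 UMIs) at P18. In the Tnmd+ cells H19 stood at 209, 55.4 and 0.281 CPM and Mest at 107, 54.2 and 22.04 CPM.

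Genes of division were lower at P18: 4 of 6 in the G2 and M phase list (Mki67, Cdk1, Ube2c and Cenpf, median log2 ratio -1.60) and 3 of 7 in the S phase list (-0.85). Cdk1 had 3 UMIs at P18, and with 2 Col14a1 UMIs allowed in place of 3 its log2 ratio went from -3.26 to -0.66, short of 2-fold. That of Crabp2, with 5 UMIs at P18, went from -3.33 to -0.95. Among the 10 named lower genes were the division genes Pbk, Tk1, Cdk1 and Anln, together with Cxcl10, Ptprz1, Crabp2, Lrrc15, Perp and Peg10. Lrrc15, a surface protein of matrix-producing fibroblasts, stood at 68.7 CPM at P11 and 7.15 CPM at P18. Cxcl10, an interferon-induced chemokine, stood at 87.4 CPM at P11 and at 0 at P18, at least 28.5-fold lower with 3 counts as the limit. Its 532 UMIs at P11 came from 53 cells, and 90 of them from 1 cell.

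The genes highest at P18 over P11 came from few cells. Ibsp stood at 0.657 CPM at P11 and 143 CPM at P18, where 73 of its 140 UMIs lay in 1 of 10 cells. Spp1, encoding osteopontin, stood at 9.03 and 276 CPM, with 106 of 270 UMIs in 1 cell. The Tnmd+ cells of the P18 library held Ibsp at 3348 CPM and Spp1 at 3484 CPM, and the part of free RNA or of mixed cells in these 2 genes was not tested. Chad (51.7 and 331 CPM), Cxcl14 (62.9 and 332 CPM) and Wif1 (92.3 and 482 CPM) were in 17, 28 and 14 of the 96 members. Gpx3, a secreted antioxidant enzyme, was broader: it stood at 30.4 and 224 CPM, was in 35 members and had at most 19 of its 219 UMIs in 1 cell. Tsc22d3, which glucocorticoids induce, stood at 257 and 1344 CPM, and also at 432 and 1927 CPM in Tnmd+ cells. Omd, Cilp2 and Comp completed the 10, and Comp stood at 288 and 1240.0 CPM. Without the Col2a1-high members the log2 ratio of Wif1 went from 2.38 to 1.56, whereas those of Chad (2.68 and 2.50), Cilp2 (2.30 and 2.37) and Comp (2.11 and 2.25) moved less, and Ibsp and Omd no longer had 100 UMIs.

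Gsn stood at 3892, 9761 and 22830 CPM at P11, P18 and P56, a log2 ratio of 1.33 from P11 to P18 (1.29 to 1.36), and was the 1 universal fibroblast gene of 12 that was higher. Sema3c, a secreted guidance protein, was the 1 that was lower, at 490 and 219 CPM, and the list's median was -0.03. Of the chemokine and complement genes, 4 of 12 were higher at P18 (Cxcl14, Ccl11, C4b and C1ra) and none lower, with a median of 0.82 (2 of 9 in Y+ cells). Of 13 IGF pathway genes Igfbp3, an IGF-binding protein, was higher, at 177 and 496.5 CPM, and Igf2 and Igfbp4 lower, while Igf1 itself stood at 568.2 and 554 CPM. In the Wnt list Wif1 was higher and Wnt2, Sfrp2 and Sfrp4 lower among 12. Sfrp4, a secreted Wnt antagonist, stood at 92.3 CPM at P11 and 28.6 CPM at P18. Of the TGF-beta and BMP genes Gdf10 was higher, at 37.1 and 114 CPM, among 15. Of the Hedgehog genes 0 of 6 were called, and Gli1 itself stood at 3.61, 6.13 and 3.97 CPM at the 3 ages.

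The P56 cells under the same rule differed from the P11 members much more. Of 7652 genes, 284 (3.71%) were at least 2-fold higher at P56 and 587 (7.67%) lower. The counting interval left out no change for all of them, which the limits on UMIs and fold largely set in advance. The median log2 ratio was -0.19. RLE scaling moved it by 0.16 to -0.03, and with it 47.2% of 790 called genes were higher against 32.6% of 871 in the totals-scaled values. In Y+ cells 55.2% of 453 called genes were higher. This comparison shares the P11 members with the one above, so the 2 sets of ratios are not independent: of 6857 genes measured in both, 96 were lower in both (275 at P18 and 564 at P56) and 47 higher in both (107 and 195).

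Fibril collagen transcripts were lower at P56, and not in the class alone. In the class the list summed to 38337, 35233 and 9867 CPM at P11, P18 and P56. In Tnmd+ cells the sums were 161287, 96029 and 21398.5 CPM, and in Pi16+ cells 31329, 28937 and 6291 CPM. Of 11 fibril collagens 9 were lower and none higher, with a median log2 ratio of -1.73 (9 lower and 1 higher under RLE scaling). Col1a1 stood at 8576, 9528 and 1946 CPM at P11, P18 and P56. Col3a1 stood at 17280, 13190 and 3778 CPM, and Col1a2 at 8292, 8977 and 2248 CPM. The level at P18 was near that of P11 for these 3, and P56 was low. Col14a1, which the rule requires, was at 541 CPM, a log2 ratio of -0.72. Of 21 collagen processing genes 6 were lower (4 under RLE scaling), among them Lox and Loxl1, which cross-link collagen and elastin. Basement membrane and collagen VI genes had 7 of 14 lower (4 under RLE scaling). Dcn, encoding decorin, went the other way without reaching 2-fold, at 8357, 8171 and 16010 CPM.

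The imprinted list had 12 of 14 genes lower and none higher, with a median log2 ratio of -2.99 (10 of 14 under RLE scaling, 10 of 11 in Y+ cells). H19 had a log2 ratio of -11.13 (counting interval -16.4 to -8.65), and Igf2 was at least 23.7-fold lower. Dlk1, a Notch-like inhibitor of differentiation, stood at 446, 391 and 10.7 CPM. Meg3, its non-coding neighbour, stood at 2533, 1305 and 338 CPM. Peg3 stood at 241, 228 and 27.2 CPM, Zim1 at 38.8, 33.7 and 0.610 CPM and Cdkn1c, a cell cycle inhibitor, at 419.9, 356 and 50.05 CPM. For Dlk1, Peg3, Zim1 and Cdkn1c, P18 lay much nearer to P11 than to P56, whereas Meg3 lay between the 2 ages and H19, Mest and Plagl1 were already low at P18. In Tnmd+ cells Dlk1 stood at 130, 274 and 6.74 CPM, so low levels at P56 were not particular to the class.

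IGF pathway genes had 6 of 13 lower at P56, Igf1, Igf2, Igf2r, Irs1, Igfbp4 and Gpc3, and Irs2 higher (5 lower and 2 higher under RLE scaling). Igf1 stood at 568.2, 554 and 132 CPM. Surface and receptor genes gave 4 of 12 lower, Cd248, Thy1, Nt5e and Fap, the last at 300.2, 216 and 98.9 CPM. All 7 measured G2 and M phase genes were lower, with a median of -2.07 (6 of 7 under RLE scaling). The transcription factors gave 2 lower, Osr1 and Meox2, and 1 higher among 19. That gene was Klf4, at 595, 900.0 and 2330 CPM. Prrx1, Twist1, Ebf1, Ebf2 and Osr2 were within 2-fold.

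**Figure D5:**
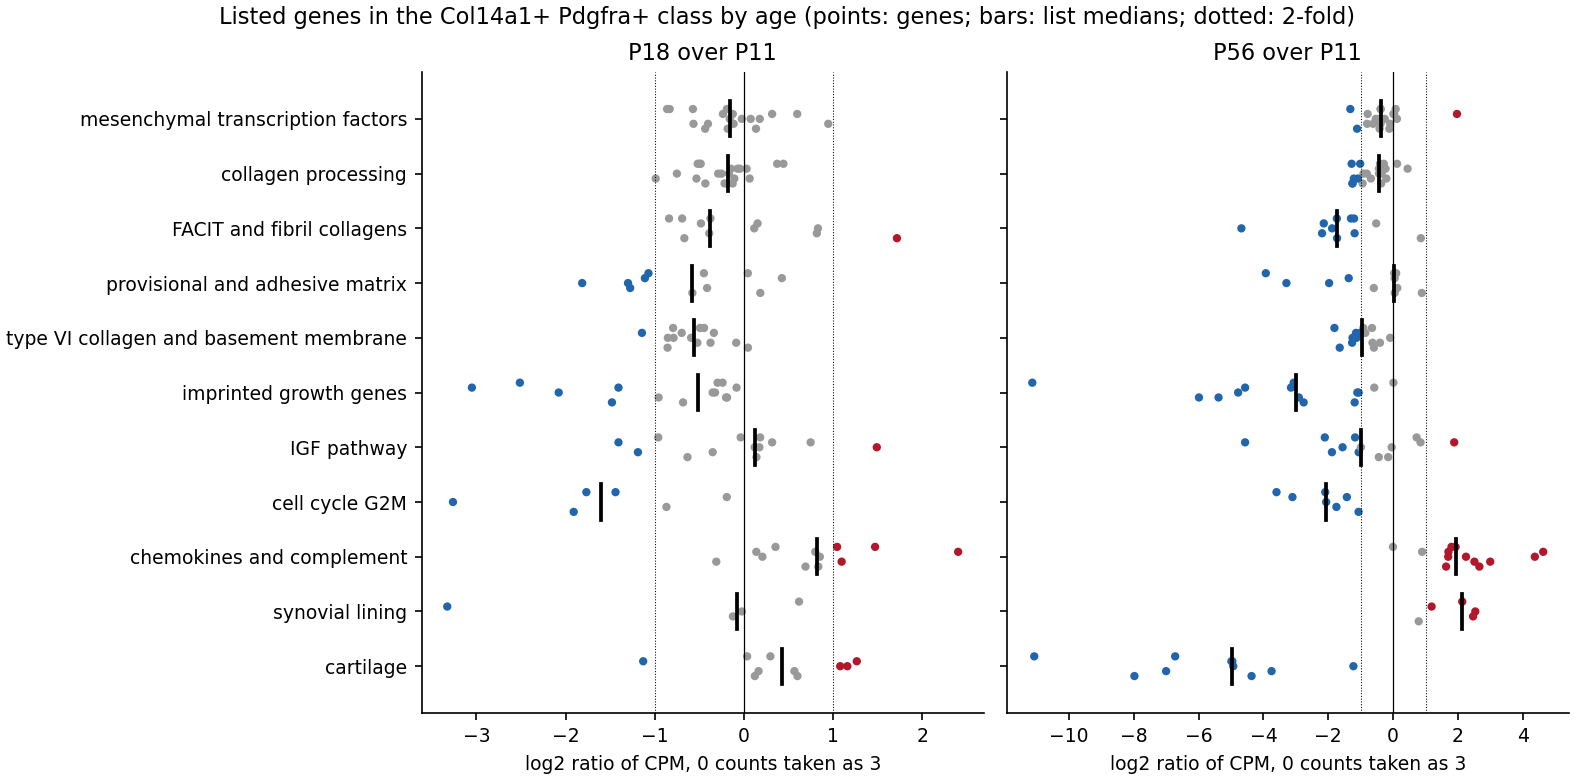
Log2 ratio of CPM at P18 over P11 (left) and P56 over P11 (right) for the measured genes of 11 lists in the class; each point is a gene, black bars are list medians, dotted lines mark 2-fold, red points are called higher and blue points lower. The imprinted list has its median at -0.52 on the left and -2.99 on the right, the chemokine and complement list at 0.82 and 1.92, and the transcription factors at -0.16 and -0.39; the 2 panels share the P11 members.

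Secreted immune genes were higher at P56. Of 13 chemokine and complement genes 11 were higher and none lower, with a median log2 ratio of 1.92 (12 of 13 under RLE scaling and 12 of 13 in Y+ cells). C3, the central complement protein, stood at 17.6, 31.7 and 363 CPM. Ccl2, the monocyte chemokine, stood at 227, 183 and 1807 CPM, Ccl7 at 158, 281 and 998 CPM and Cxcl1, a neutrophil chemokine, at 657, 758 and 3118 CPM. The level at P56 was higher in Tnmd+ cells as well, with C3 at 1.84, 2.23 and 363 CPM and the whole list at 1034, 1047 and 5809 CPM against 1986, 3104 and 9234 CPM in the class. The class thus lay above the Tnmd+ cells for the summed list at each age, and equal to them for C3 at P56.

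Lining genes were also higher at P56. Prg4, Crabp2, Htra4 and Has1 were higher, 4 of 5, with a median of 2.13. Prg4 stood at 502, 770.3 and 2200 CPM, and in Tnmd+ cells at 469, 1342 and 4530 CPM. Has1, a hyaluronan synthase, stood at 175, 172 and 964 CPM. Crabp2, which carries retinoic acid, stood at 51.2, 5.11 (5 UMIs) and 117 CPM, and its low level at P18 depended on the Col14a1 requirement, as given above. The named genes higher at P56 were S100g, Galnt15, Amd2, C3, Serpina3n, Ckm, Hmox1, Rgcc and Ifi207. Hmox1, encoding haem oxygenase 1, stood at 44.8, 36.8 and 784 CPM in the class and at 934 CPM in Tnmd+ cells at P56. Ckm is a muscle gene, and all 3 muscle markers measured were higher. The muscle list summed to 18.1 CPM at P11 and 192 CPM at P56, against 3.29 and 17.1 CPM in Tnmd+ cells and 74.5 and 608 CPM in Cdh5+ cells, and its part in the other results was not tested.

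The 10 named genes lower at P56 were H19, Col2a1, Col9a2, Msmp, Col9a1, Col9a3, Ucma, Gap43, Zim1 and Agtr2. All 10 measured cartilage genes were lower, 4 of them at 0 at P56, and without the Col2a1-high members 2 of 3 were. Msmp was at least 174-fold and Col9a1 at least 128-fold lower, and at P11 Msmp lay in 10 cells. Agtr2, the type 2 angiotensin receptor of fetal mesenchyme, stood at 54.5, 21.4 and 0 CPM, at least 59.6-fold lower. Gap43, a growth-associated membrane protein, stood at 26.1, 5.11 and 0.305 CPM (1 UMI) and was at 190.1 CPM in Pi16+ cells at P11.

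An age trend could be tested over the 6 plates with at least 3 class wells, as the slope of a gene per doubling of age. The plates also differed in Xist, with 0, 793, 20, 246, 0 and 0 counts over all wells from P11 to P42. Age and the mix of sexes therefore cannot be told apart over the plates, and the part of sex in the slopes was not tested. In file layout, tried as a term below, P14 and P18 had no decimals and the other plates had them. Of 261 genes with at least 10 counts on at least 4 plates, 0 passed an adjusted p under 0.05 in edgeR's quasi-likelihood test, and 47 had an unadjusted p under 0.05. DESeq2 called 17 of 175. S100a4, a calcium-binding protein of fibroblasts, stood at 135.5 (2 counts), 149 (7 counts), 1342, 1171, 3090 and 3038 CPM from P11 to P42. It was low on the first 2 plates and high on the later 4, with a slope of 2.69 (SE 0.56) and, with Rpl22l1 (-1.91), the lowest adjusted p of 0.1196. Fn1 had a slope of 2.33 (SE 0.57, adjusted p = 0.1257), from 271 (4 counts) and 660.3 CPM through 2899, 423 (13 counts) and 2719 to 7488 CPM. On the plates Fn1 was thus higher at P18 than at P11, whereas in the droplet class it was lower. The P11 plate value rests on 4 counts, and the P21 plate was again low, so the plates do not settle the direction. Over the same plates 42 of 44 ribosomal protein genes had a negative slope, with a median of -0.93 and an unadjusted p under 0.05 for 21 of them. The mitochondrial ribosomal RNA mt-Rnr1 had a slope of 1.44 and the transcript CT010467.1 one of 1.56, and their part in the slopes of S100a4 and Fn1 was not tested. Gsn had a slope of 0.57 (adjusted p = 0.5433), Col3a1 of 0.02 and Col1a1 of 0.03. The plates end at P42, so the P56 level of the collagens in the droplets has no plate beside it.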

How the data were processed

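The authors deposited unnormalised counts, as 10x matrices of genes by barcodes for the droplets (per the file headers from software 3.1.0 for both young ages and 3.0.2 for P56) and as tables of genes by wells for the plates. The authors used the mm10 build, per the submitters' processing notes; aligner, annotation and any collapsing of plate reads by molecular identifier are not given in the sources used here. The class, the lists and the named genes were chosen with earlier results of these data known.

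Cells were kept from 500 detected genes upward if mitochondrial genes held 10% of counts or less. Counts of each class were summed per library and given as CPM. Genes with at least 100 UMIs over the compared groups were called at a 2-fold difference, at both ages where 2 ages were used. In the comparisons with Tnmd+ and Pi16+ cells an equal share of the UMI minimum, also of the lower one tried, had to be met at each age. With 1 library per age these are not tests. Intervals are exact Poisson for counts and Clopper-Pearson for shares. Shares of cells were computed on cells thinned to 2000 UMIs. Scrublet (scanpy 1.11.5) marked 1, 1 and 3 cells at P11, P18 and P56 with its automatic threshold, so its call was not used. Removing the highest scores at a rate of 0.8% per 1000 cells took out 70, 233 and 211 cells, among them 3, 1 and 8 cells of the class, and was tried as an alternative.

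On the plates, counts were summed per class of wells and tested with edgeR 4.0.16 (R 4.3.3), with TMM scaling, the quasi-likelihood test, plate as a block and Benjamini-Hochberg adjustment at 0.05. Both classes of a pair come from the same plate, which is where the pairing comes from. On simulated counts for the contrast, with a log2 change of 2, 159 of 160 changed genes among 823 were recovered with 1 false call. For the slope, with a log2 change of 2 per doubling of age, 45 of 45 among 223 were recovered with 1 false call. The simulated counts had the same spread for every gene and no difference between plates other than depth. They check the fits and do not give the power on the real plates. DESeq2 1.42.0, RLE scaling, other filters and gates, and each plate left out were the alternatives. Gene positions are from GENCODE M21 on GRCm38.

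The genes named are the 10 with the largest log2 ratio in each direction among called genes of a droplet comparison (by the smaller ratio where 2 ages were used), the 10 with the lowest p in each direction on the plates, and the 10 with the highest variance-to-mean ratio over cells, leaving out rule genes, mitochondrial, ribosomal and clone-named genes, Xist and Y-linked genes in the droplets, plus examples from the lists. One gene that this rule takes at P56 is not reported here.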

Additional observations from a re-analysis of the deposited data

Results flagged for a closer look

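On the plates, 50 groups of 6 values were examined for a plate apart from the other 5, and 5 had one, where chance alone gives about 1 in 20. In the class wells, Cd34 on the P11 plate (1355 CPM), Gpc3 on the P11 plate (1490 CPM) and Acta1 on the P21 plate (975.7 CPM) lay above the others. In the Tnmd wells, Col12a1 on the P14 plate (1362 CPM) and Fbn1 on the P42 plate (1101 CPM) did. The higher level of Cd34 in class wells held on all 6 plates, and the log2 fold change of Cd34 ranged from 1.99 to 2.37 with 1 plate left out.

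Crabp2, which carries retinoic acid, was the 1 gene of 273 examined whose ratio of the class to Tnmd+ cells was past 2-fold in opposite directions at the 2 ages. The log2 ratio was 1.02 at P11 (51.2 against 25.3 CPM) and -3.142 at P18 (5.11 against 45.1 CPM). The P18 value rests on 5 UMIs, and with 2 Col14a1 UMIs allowed in place of 3 the log2 ratio of P18 to P11 went from -3.33 to -0.95. With 1 library per age, this difference was not tested.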

How the results depend on the processing

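Requiring 1000 detected genes and at most 5% mitochondrial counts gave 291 members and a P11 share of 19.8%. At least 5 Col14a1 UMIs gave shares of 12.2% and 1.41% at P11 and P18. Thinning to 4000 UMIs before gating gave 290 members, shares of 8.75% and 1.17%, and 136, 293, 276 and 25 genes at 2-fold (P18 against P11, P56 against P11, Tnmd+ cells, Pi16+ cells) in place of 386, 871, 641 and 100. A minimum of 20 UMIs gave 1279, 2044, 1159 and 240. Y+ cells alone gave 137, 453, 386 and 28, with Eln against Pi16+ cells at 0.84. Leaving out genes higher in Ptprc+ cells at P18, an alternative chosen after seeing the data, gave 252 of 4419 for P18 against P11. In the droplets 749 of the recomputed values stayed close or kept their direction and call, and 45 moved. Of these, 38 and 20 were class sizes, shares or counts of genes, which have no direction. A further 4 lost their call (Cdk1 and Crabp2 with 2 Col14a1 UMIs allowed, Eln with thinning, Scara5 in Y+ cells) and 1 turned. Genes that fell under the UMI minimum, such as Ibsp and Omd without the Col2a1-high members, are not in this tally. It does count leaving out those members, which was also chosen after seeing the data.

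On the plates the block makes the difference in pairing classes within a plate: with no block 11 genes passed in place of 59. With 1 plate left out in turn the count was 30 to 64, lowest without P14. With no filter but 1 count it was 208 of 19957 (3 higher and 205 lower), and with all other wells in place of Tnmd wells 99. Without the block Gsn, Mfap5, Apod, Ly6a, Ablim1, Fstl1, Ramp2, Myoc, Sparc, Acta1 and Col12a1 lost their call. With no filter Gsn, Mfap5, Sgce, Ly6a, Ablim1, Fstl1, Ramp2 and Myoc did, Acta1 with at least 3 counts of Col14a1 and Tnmd, and Myoc with stricter limits on wells. Fstl1 and Ramp2 lost it without P14, and Ramp2 without P21. The age slope had 0 calls, 17 with DESeq2, 13 with no filter, 3 on linear age, 1 with the file layout as a term, and 0 to 1 with a plate left out, the 1 without P21. The causes were not tested. With 96 members and 978880 UMIs at P18 and 6 to 11 class wells per plate, low genes were not measured in the class.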

Other observations

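Some gene groups of the class fall outside the comparisons above. Immediate-early and heat shock genes, which dissociation of tissue can induce, gave 0 of 10 calls at P18 against P11 (median log2 ratio 0.43), 0 of 10 against Tnmd+ cells (0.40) and 3 of 10 lower at P56 (-0.57), namely Egr1, Hspa1a and Hspa1b. Fos stood at 2158, 4028 and 1153 CPM in the class and at 3106, 3162 and 1234 CPM in Tnmd+ cells at P11, P18 and P56. Under RLE scaling 2 of the 10 were higher and 1 lower at P56.

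Small leucine-rich proteoglycans divided the class from the Tnmd+ cells gene by gene. Lum, encoding lumican, stood at 1932, 1555 and 801 CPM in the class at the 3 ages and at 391, 294 and 404 CPM in Tnmd+ cells. Aspn, encoding asporin, stood at 2286, 1774 and 1593 CPM against 612, 279.9 and 1168 CPM. Fmod, Kera and Omd were lower in the class at P11 and P18, so 3 of 10 were higher and 3 lower. Of the fat-related genes, Cebpb, a factor of early fat cell differentiation and of acute responses, stood at 193, 465.8 and 668 CPM, while Pparg, which defines the fat lineage, stood at 0.821, 2.04 and 0.915 CPM, from 5, 2 and 3 UMIs. S100g, a calcium-binding protein, stood at 0.164 (1 UMI), 9.19 and 37.2 CPM in the class and at 78.2 CPM in Tnmd+ cells at P56. Galnt15, a glycosyltransferase, stood at 0.821, 22.5 and 70.2 CPM and at 75.5 CPM in Tnmd+ cells at P56.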
